A study of Mus musculus with 8 samples.

Results

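The genes examined here carry out DNA replication and cell division. They are 53 mouse genes chosen by symbol, and the rule used no signal. The members and lists were nevertheless chosen with earlier results of these data known. Shares of members set beside those of all genes are therefore descriptive. Of these, 23 act in replication, as licensing factors and helicase subunits, fork proteins or enzymes of nucleotide synthesis. Another 23 act in mitosis, and 7 were grouped as regulators of entry into S phase. The last class is a loose one, as it includes the checkpoint kinase gene Chek1 and Uhrf1, which acts on newly copied DNA. The platform annotation assigned 105 probes to 50 of the 53 genes, and Ccnb1, Tacc3 and Mki67 had no listed probe. A probe counted as detected on an array where its detection p against the negative controls was under 0.01, and a gene was tested if 2 or more arrays detected 1 of its probes. That left 40 members among 8306 tested genes, 20 for replication, 14 for mitosis and 6 for S-phase entry.

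Expression was measured with single-colour bead arrays on total RNA from primary macrophages grown from mouse bone marrow. There were 4 groups of 2 arrays. They were cells labelled Bcl6-/- with LPS, cells labelled Bcl6-/- left unstimulated, wild-type cells with LPS, and wild-type cells left unstimulated. All mice were male, 10 weeks old and of the C57Bl6/J background. Bcl6 is a zinc-finger repressor of transcription, and LPS is a bacterial cell-wall lipid sensed through Tlr4. Both arrays of a group are technical replicates according to the labels. Every p-value therefore measures only the spread between such arrays, and none covers differences between mice or cultures. The labels give neither the LPS dose and duration nor the part of Bcl6 that was deleted.

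Replication begins when Cdc6 and Cdt1 load the Mcm helicase onto origins, and the GINS complex then activates it. Polymerases, the clamp loader Rfc and the sliding clamp Pcna copy the strands from nucleotides supplied by enzymes such as ribonucleotide reductase. Mitotic genes act later, in chromosome condensation, spindle assembly, the spindle checkpoint and cytokinesis. Genes of the early class are typically controlled by E2F factors and those of the late class through the CHR, the cell cycle homology region read by the MuvB complex. Macrophages from bone marrow divide in culture under the growth factor Csf1, and LPS is known to halt that division.

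Promoter windows of RefSeq on GRCm38.p6, from 250 bases before to 50 bases after a gene start, were given for 44 of the 53 members. Both strands were searched for the E2F motif, as TTCCCGC or TTCGCGC or TTGCCGC or TTGGCGC, for the CHR, as TTTGAA or TTCGAA, and for the CCAAT box, as CCAAT. E2F matches on opposite strands can overlap each other, and a reverse match GCGCCAA followed by T overlaps a CCAAT box. An E2F match was present for 14 of 19 replication genes (73.7%), 3 of 19 mitotic genes (15.8%) and 4 of 6 regulators (66.7%). It was present for 19.6% of the 6822 tested genes with a window and for 10.9% of all 27025 genes in the promoter table. The CHR had the opposite distribution, in 4 of 19 replication genes (21.1%), 13 of 19 mitotic genes (68.4%) and 1 of 6 regulators (16.7%), against 17.0% of tested genes and 21.7% of all genes. CCAAT was found for 11 of 19 replication genes (57.9%), 15 of 19 mitotic genes (78.9%) and 3 of 6 regulators (50%), against 43.3% of tested genes. These shares describe letters in fixed windows and were not tested.

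The promoters of 4 replication genes and 4 mitotic genes are shown because they hold the motif that separates the classes, and because each gene is described below. Capitals mark E2F matches in Mcm5 (chr8:75109259-75109558, plus strand), Mcm6 (chr1:128359656-128359955, minus strand), Mcm3 (chr1:20820263-20820562, minus strand) and Cdc6 (chr11:98907901-98908200, plus strand). Capitals mark CHR matches in Cdc20 (chr4:118437294-118437593, minus strand), Plk1 (chr7:122159185-122159484, plus strand), Bub1b (chr2:118597961-118598260, plus strand) and Kif23 (chr9:61946750-61947049, minus strand). CCAAT letters are left in lower case.
Mcm5: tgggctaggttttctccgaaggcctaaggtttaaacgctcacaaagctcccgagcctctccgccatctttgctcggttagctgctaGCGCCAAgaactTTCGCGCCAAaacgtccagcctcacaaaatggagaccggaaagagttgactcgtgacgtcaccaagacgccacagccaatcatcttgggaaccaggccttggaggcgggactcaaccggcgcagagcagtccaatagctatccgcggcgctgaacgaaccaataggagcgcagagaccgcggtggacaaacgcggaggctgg
Mcm6: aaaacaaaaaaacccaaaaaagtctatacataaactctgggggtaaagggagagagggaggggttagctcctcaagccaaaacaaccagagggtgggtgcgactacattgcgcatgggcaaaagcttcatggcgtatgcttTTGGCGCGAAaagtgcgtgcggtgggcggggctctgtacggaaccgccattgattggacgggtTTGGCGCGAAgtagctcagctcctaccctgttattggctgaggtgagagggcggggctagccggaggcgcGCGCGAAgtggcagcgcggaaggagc
Mcm3: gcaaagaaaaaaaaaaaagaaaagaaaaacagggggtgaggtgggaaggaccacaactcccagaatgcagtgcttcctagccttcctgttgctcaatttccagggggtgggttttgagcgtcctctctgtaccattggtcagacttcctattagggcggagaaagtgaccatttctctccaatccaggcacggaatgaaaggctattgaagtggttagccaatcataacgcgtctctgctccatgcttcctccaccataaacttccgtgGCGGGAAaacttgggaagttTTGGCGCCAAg
Cdc6: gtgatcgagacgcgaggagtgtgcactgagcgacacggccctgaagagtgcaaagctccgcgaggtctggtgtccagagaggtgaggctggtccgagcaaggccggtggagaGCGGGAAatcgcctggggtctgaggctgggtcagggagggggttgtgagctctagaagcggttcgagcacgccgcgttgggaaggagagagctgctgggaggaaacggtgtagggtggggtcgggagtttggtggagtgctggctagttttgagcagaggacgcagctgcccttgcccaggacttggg
Cdc20: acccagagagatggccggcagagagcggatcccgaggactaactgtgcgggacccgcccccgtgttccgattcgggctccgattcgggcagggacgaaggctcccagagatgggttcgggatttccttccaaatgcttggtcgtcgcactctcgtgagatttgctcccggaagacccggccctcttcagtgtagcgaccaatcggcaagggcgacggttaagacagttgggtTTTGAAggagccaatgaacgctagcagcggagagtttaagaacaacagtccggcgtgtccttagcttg
Plk1: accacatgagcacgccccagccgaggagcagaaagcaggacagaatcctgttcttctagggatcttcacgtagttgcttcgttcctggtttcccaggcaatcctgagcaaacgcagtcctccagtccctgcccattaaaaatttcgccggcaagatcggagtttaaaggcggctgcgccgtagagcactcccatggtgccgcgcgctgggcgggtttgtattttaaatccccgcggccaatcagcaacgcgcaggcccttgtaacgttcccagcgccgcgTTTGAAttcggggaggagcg
Bub1b: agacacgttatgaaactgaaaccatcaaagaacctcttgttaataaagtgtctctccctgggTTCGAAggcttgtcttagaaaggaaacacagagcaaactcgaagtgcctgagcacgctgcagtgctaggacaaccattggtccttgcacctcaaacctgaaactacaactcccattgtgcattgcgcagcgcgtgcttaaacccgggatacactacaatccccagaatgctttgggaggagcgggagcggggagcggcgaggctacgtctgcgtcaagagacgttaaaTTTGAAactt
Kif23: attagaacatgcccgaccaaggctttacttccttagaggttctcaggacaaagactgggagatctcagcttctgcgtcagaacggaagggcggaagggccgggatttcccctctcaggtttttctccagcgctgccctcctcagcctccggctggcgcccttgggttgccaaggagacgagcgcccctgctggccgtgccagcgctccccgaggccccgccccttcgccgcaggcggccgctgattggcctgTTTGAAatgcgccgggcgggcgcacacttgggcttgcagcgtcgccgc

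In these sequences, Mcm5 holds 3 E2F matches, Mcm6 holds 5, Mcm3 holds 3 and Cdc6 holds 1. The CHR of Cdc20 begins 18 bases before the start, at -18, and that of Kif23 begins at position 3 after it. Over all mitotic windows the 20 CHR matches, at 19 sites because the overlapping windows of Prc1 share 1, had a median first base of -21, and over all replication windows the 32 E2F matches had a median first base of -24.5.

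**Figure D1:**
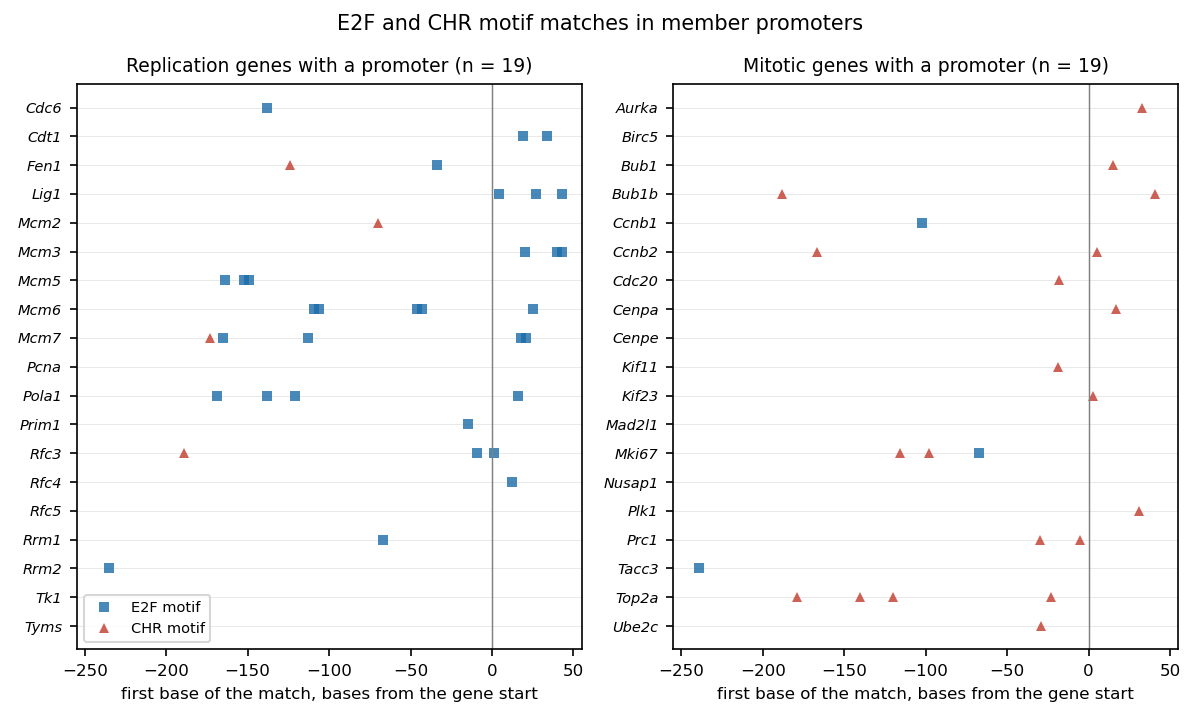
Position of the first base of each E2F match (squares) and CHR match (triangles) relative to the gene start in the windows of 19 replication genes (left) and 19 mitotic genes (right). E2F squares fill the left panel, with 32 matches in 14 genes, and CHR triangles the right panel, with 20 matches in 13 genes, of which 2 are 1 Prc1 site seen from both of its starts.

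Between 11857 and 13209 of 45281 probes were detected per array, raw medians lay between 112.1 and 130.2, and precision is limited by how few arrays there are. Arrays of a group correlated across genes with r of 0.993 to 0.995. All 13 tested macrophage markers were detected on each of the 8 arrays. The macrophage lysozyme gene Lyz2 had a log2 signal of 15.55 to 15.96 and the surface receptor Adgre1 12.79 to 13.61. The markers were not level between genotypes. Without LPS 9 of the 13 were lower and 4 higher in the labelled knockout than in wild type, with a lowest change of -3.55. With LPS 8 were lower and 5 higher, with a lowest change of -3.16. The Bcl6 probe read 9.92 and 9.93 in the labelled knockout with LPS and 12.60 and 12.33 in the labelled knockout without it. It read 10.75 and 10.99 in wild type with LPS and 10.95 and 10.92 in wild type without it. The unstimulated labelled knockout therefore had the highest Bcl6 signal, 1.53 ± 0.13 log2 units above wild type (limma adjusted p = 4.76e-05). Whether the probe lies in the deleted part was not tested, so every direction below refers to arrays labelled knockout.

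Most members shared their highest and their lowest group. The mean log2 signal was highest in the unstimulated labelled knockout for 35 of the 40 tested members, among them all 20 replication genes, 10 of 14 mitotic genes and 5 of 6 regulators. It was lowest in LPS-treated wild-type cells for 30 of 40, made up of 18 replication genes, 9 mitotic genes and 3 regulators. Of the rest, 8 were lowest in the labelled knockout with LPS and 2 in unstimulated wild type. How often these groups were highest or lowest over all genes was not counted. Summed on the linear scale, the 20 replication genes reached 9584.69 and 9692.99 on the labelled knockout LPS arrays, 18337.9 and 17468.2 on the unstimulated labelled knockout arrays, 6291.67 and 6361.74 on the wild-type LPS arrays and 10173.3 and 10443.1 on the unstimulated wild-type arrays. By these sums the labelled knockout with LPS stood near unstimulated wild type, but single genes went both ways. Tyms had a mean log2 signal of 10.72 in the labelled knockout with LPS against 9.02 in unstimulated wild type. Mcm2 had 7.25 against 7.94 and Cdt1 9.66 against 10.42. The difference between these groups was not tested. The 14 mitotic genes summed to 10349.2 and 10088.4 in the labelled knockout with LPS, 16868.1 and 15855.5 in the labelled knockout without it, 7554.93 and 7830.36 in wild type with LPS and 12601.1 and 12554.3 in wild type without it. In this bulk RNA, fewer dividing cells and less RNA per dividing cell cannot be told apart.

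**Figure D2:**
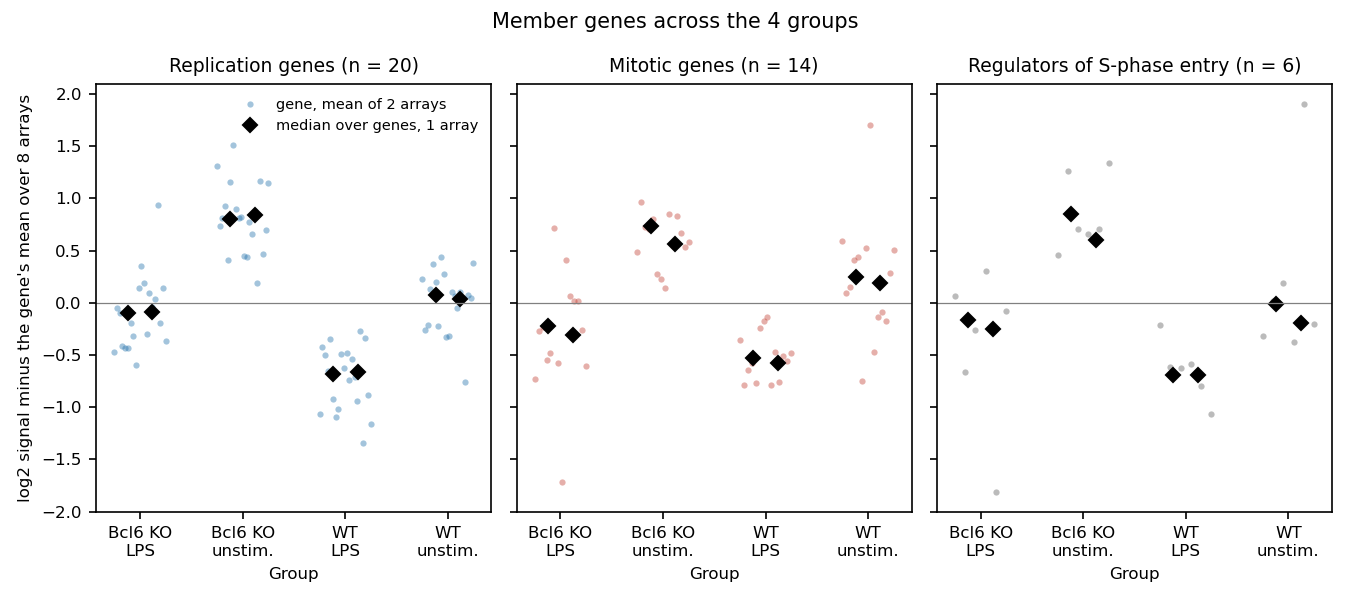
Log2 signal of each tested member relative to its own mean over 8 arrays, by group, for replication genes (left, n = 20), mitotic genes (middle, n = 14) and regulators of S-phase entry (right, n = 6). Points are genes averaged over 2 arrays and diamonds are the median over genes on 1 array. In the replication panel the diamonds lie at -0.10 and -0.09 for the labelled knockout with LPS, 0.80 and 0.84 for the labelled knockout unstimulated, -0.68 and -0.66 for wild type with LPS and 0.07 and 0.04 for wild type unstimulated.

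Changes below are differences in log2 signal ± the standard error of a limma fit over all 8306 genes. Calls required both an adjusted p under 0.05 and a 2-fold or larger change. Without stimulation, 10 of 40 members (25%) were called higher in the labelled knockout than in wild type and 2 (5%) were called lower. Of all genes tested, 4.54% were called higher and 3.96% lower, so the share that was lower is near the background. The 10 were the replication genes Mcm2, Mcm4, Cdc6, Gins2 and Tyms, the mitotic genes Mad2l1 and Tpx2, and the regulators Ccne2, E2f1 and Uhrf1. The 2 lower genes were Kif23 and E2f2. With no minimum on the fold, 29 of 40 were higher at an adjusted p under 0.05, where 18.2% of all genes were. The median change was 0.76 for replication genes, 0.47 for mitotic genes and 0.90 for regulators, beside 0.0038 for all genes.

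With LPS in both genotypes, 3 of 40 members (7.5%) were called higher in the labelled knockout, Tyms, Rrm2 and Tpx2, and 2 (5%) were called lower, again Kif23 and E2f2. The background was 6.19% higher and 4.97% lower, so at the 2-fold threshold both shares were near the background. With no minimum on the fold, 21 of 40 were higher (52.5%), beside 21.3% of all genes. The median change was 0.65 for replication genes, 0.35 for mitotic genes and 0.32 for regulators, beside -0.03 for all genes. Tyms and Tpx2 were called higher in both treatments, which is 2 of the 10 unstimulated calls and 2 of the 3 calls with LPS. Of the 12 unstimulated calls in either direction those of Tyms, Uhrf1 and E2f2 held under all 17 alternatives that kept the fold minimum, and of the 5 with LPS that of Tyms did. Under median scaling of the arrays the median over all genes for this comparison moved to -0.29 and calls over all genes were 318 higher and 769 lower, against 514 and 413 as reported here, and relative to that median the replication and mitotic medians were 0.64 and 0.33.

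**Figure D3:**
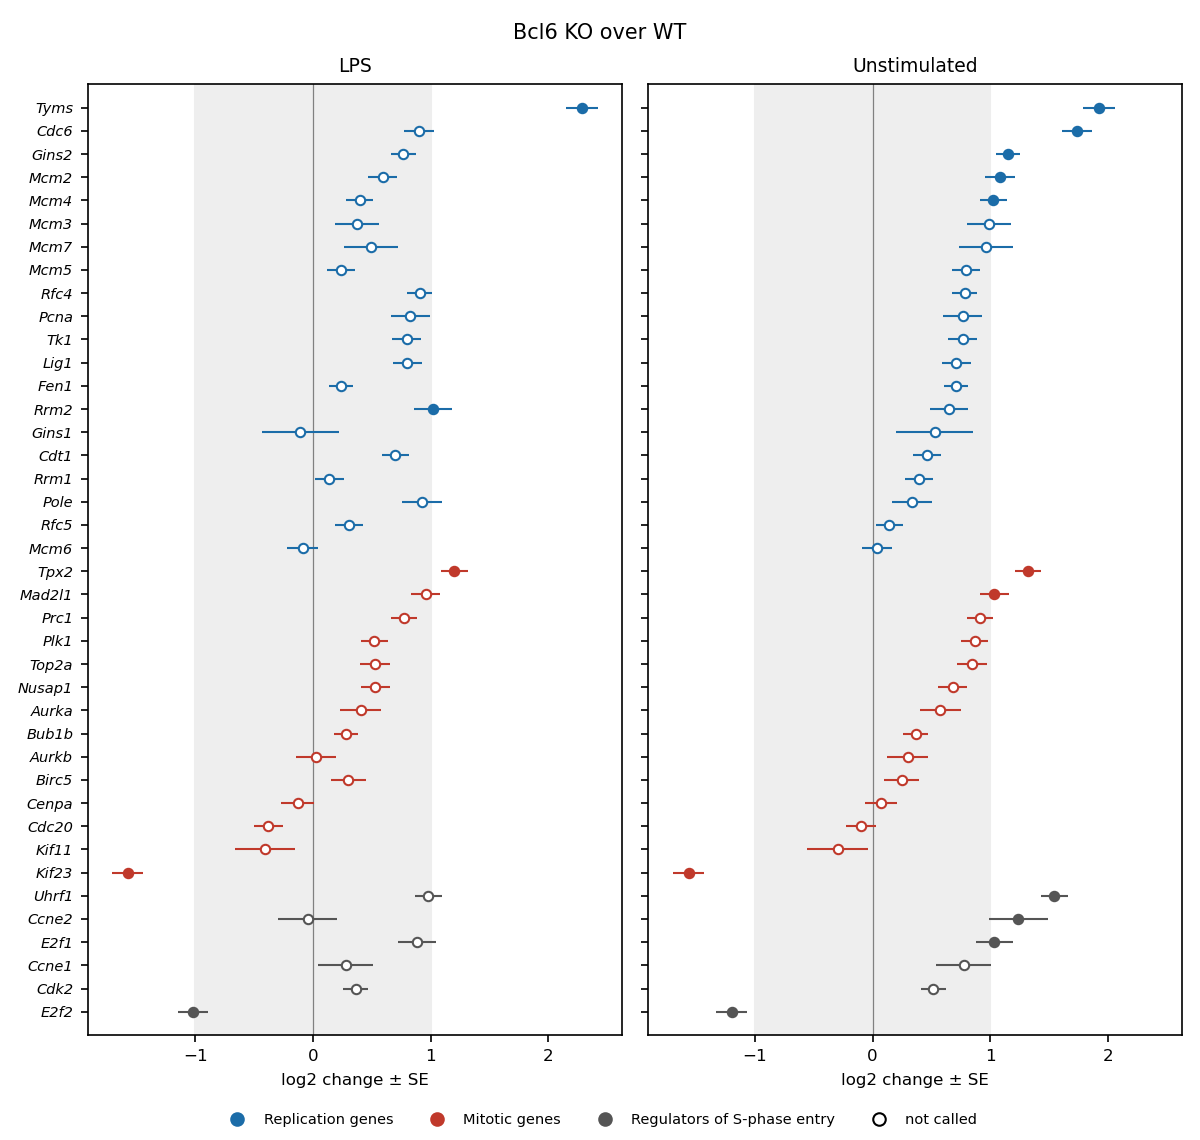
Log2 change ± SE of each tested member, labelled Bcl6 knockout over wild type, with LPS (left) and unstimulated (right). Filled points are called genes and the shaded band spans changes under 2-fold. Replication genes lie between -0.11 and 2.29 with LPS and between 0.04 and 1.92 unstimulated, and Kif23 and E2f2 lie on the left in both panels.

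LPS lowered many of these genes in both genotypes. In the labelled knockout 17 of 40 members (42.5%) were called lower with LPS than without it and 0 were called higher, where 7.36% and 7.49% of all genes were. Under median scaling, calls over all genes moved to 497 higher and 939 lower, against 622 and 611, with a median of -0.28, and lower calls numbered 11 replication and 8 mitotic genes, against 8 and 6. At an adjusted p under 0.05 alone, 33 were lower and 1 higher, beside 30.0% and 19.7% of all genes. In wild type 8 of 40 (20%) were called lower and 0 higher, where 6.50% and 7.52% of all genes were. By adjusted p alone, 30 were lower and 1 higher there, beside 30.0% and 19.3% of all genes. The 1 higher gene was Mad2l1 in both genotypes. Genes called lower in both numbered 7, of the 17 in the labelled knockout and of the 8 in wild type. They were Mcm2, Mcm7, Cdt1, Tk1, Bub1b, Kif23 and E2f2, and Rfc4 was called in wild type alone, with a change of -0.92 ± 0.11 in the labelled knockout. Median changes were -0.88 for replication and -0.89 for mitotic genes in the labelled knockout and -0.75 and -0.82 in wild type, beside -0.12 for all genes in each.

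**Figure D4:**
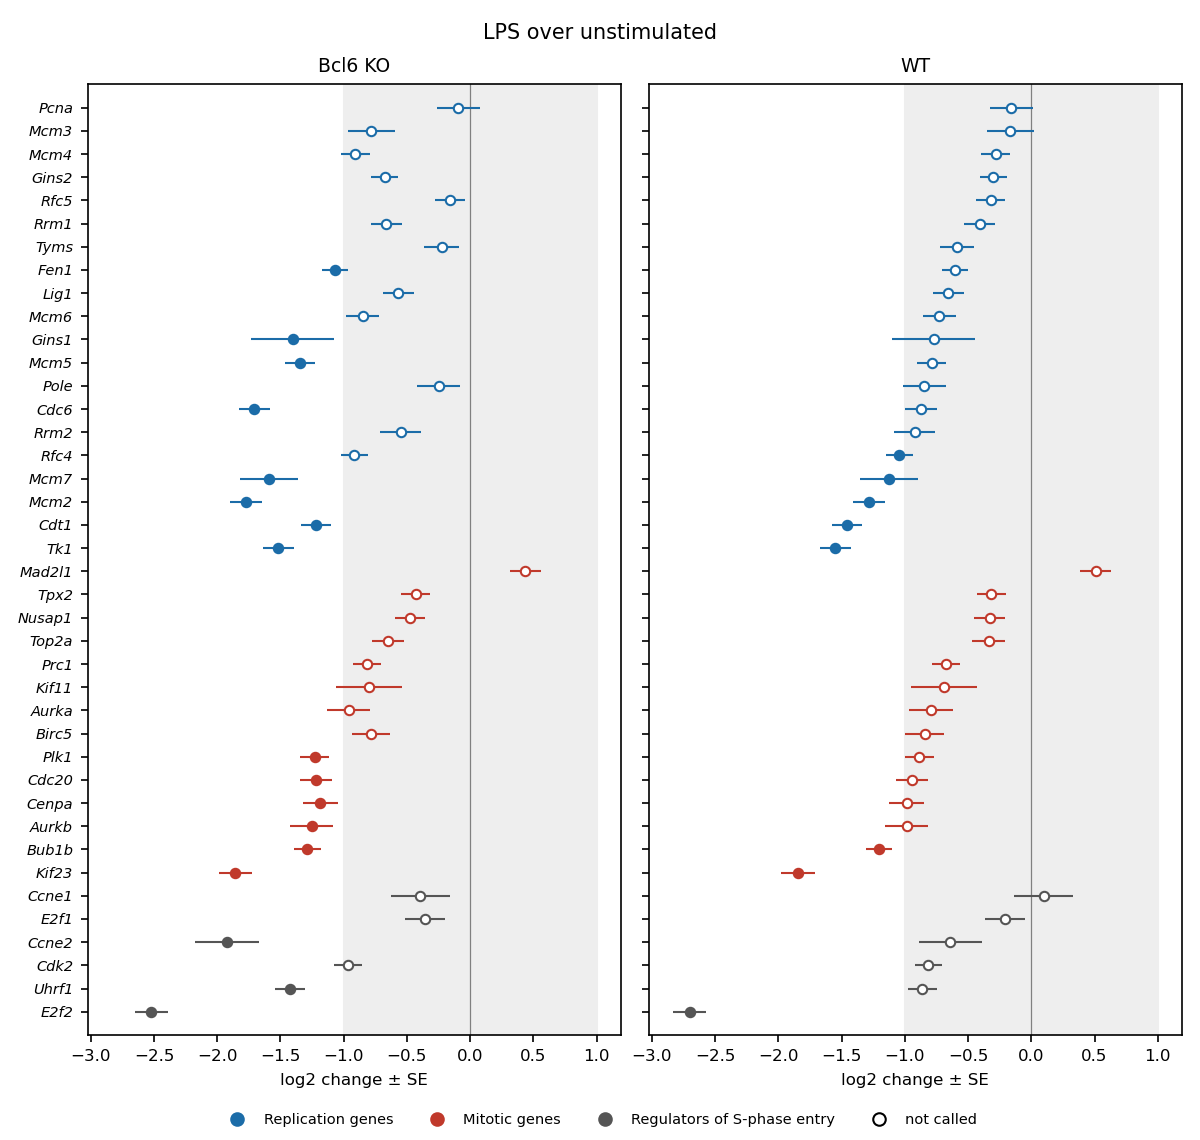
Log2 change ± SE of each tested member, LPS over unstimulated, in the labelled Bcl6 knockout (left) and wild type (right). Filled points are called genes and the shaded band spans changes under 2-fold. Mad2l1 is to the right of 0 at 0.43 in the labelled knockout and 0.51 in wild type, and E2f2 is farthest to the left at -2.52 and -2.70.

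The 10 licensing and helicase genes were all tested. Without stimulation 4 were called higher in the labelled knockout, with a list median of 0.97, and with LPS 0 were, with a median of 0.45. Of all genes, 4.54% were called higher without stimulation and 6.19% with LPS. Mcm2, a helicase subunit, had log2 signals of 7.35 and 7.15 in the labelled knockout with LPS and 9.07 and 8.97 in the labelled knockout without it. In wild type it had 6.55 and 6.76 with LPS and 7.91 and 7.98 without it. No array of any group overlapped another group, and Mcm2 was 1.08 ± 0.12 higher in the unstimulated labelled knockout than in wild type (limma adjusted p = 0.000276). With LPS it fell in both genotypes, with changes of -1.77 ± 0.12 in the labelled knockout (limma adjusted p = 7.49e-06) and -1.28 ± 0.12 in wild type (limma adjusted p = 5.66e-05). The helicase subunit Mcm4 had 11.38 and 11.43 in the unstimulated labelled knockout, against 10.36 and 10.40 in unstimulated wild type, a change of 1.02 ± 0.11. Its call was lost under 4 of 17 alternatives, among them median scaling and cyclic loess.

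Cdc6, the loader of the helicase, had the largest unstimulated change among licensing genes. Its log2 signal was 6.16 and 6.11 in the labelled knockout with LPS, 7.79 and 7.89 in the labelled knockout without it, 5.38 and 5.09 in wild type with LPS and 6.12 and 6.09 in wild type without it. The unstimulated labelled knockout stood clear of all other arrays, 1.73 ± 0.12 above wild type (limma adjusted p = 1.68e-05). Cdc6 was not well above background on either wild-type LPS array and on 1 of the 2 labelled knockout LPS arrays. Among LPS-treated cells the labelled knockout exceeded wild type by at least 1.20-fold, and the bound on its fall with LPS in wild type was at least 1.18-fold. In the labelled knockout it fell by 1.71 ± 0.12 with LPS (limma adjusted p = 8.98e-06).

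Gins2, a GINS subunit, had 8.73 and 8.85 in the unstimulated labelled knockout, against 7.67 and 7.62 in unstimulated wild type. Its change of 1.15 ± 0.10 was called (limma adjusted p = 6.94e-05), and its 2 further probes read 0.44 and 0.78. Cdt1, the partner of Cdc6 in licensing, was not called between genotypes, at 0.70 ± 0.12 with LPS and 0.46 ± 0.12 without it. Both genotypes had less Cdt1 with LPS, with changes of -1.22 ± 0.12 in the labelled knockout and -1.46 ± 0.12 in wild type (limma adjusted p = 4.91e-05 and 1.75e-05). Mcm5 fell by 1.35 ± 0.12 with LPS in the labelled knockout, where it had 9.76 and 9.79 against 11.16 and 11.09 without LPS. In wild type it had 9.65 and 9.42 with LPS against 10.27 and 10.38 without it, a change of -0.79 ± 0.12 that did not reach 2-fold. Mcm7 fell by 1.59 ± 0.23 with LPS in the labelled knockout and was at least 1.97-fold lower with LPS in wild type, where neither LPS array was well above background. Its call in wild type was lost under 5 of 17 alternatives, among them averaging its kept probes, at changes as small as -0.50. Gins1 was called lower with LPS in the labelled knockout, at -1.40 ± 0.33, but its arrays there were far apart at 6.54 and 7.75. Its call was lost under 4 of 17 alternatives, among them leaving out the first of these arrays. Mcm3 changed by 0.99 ± 0.19 between unstimulated genotypes, just under the 2-fold threshold.

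Of the fork proteins 6 of 9 were tested, and none was called between genotypes, with medians of 0.81 with LPS and 0.71 without it. Of all genes, 6.19% were called higher and 4.97% lower with LPS, and 4.54% and 3.96% without it. For 6 genes the absence of calls is near that background. Prim1, a primase subunit, and Pola1, the polymerase that extends its primers, were detected on no array, and Rfc3, a clamp-loader subunit, on 1. The ligase Lig1 had 9.39 and 9.36 in the labelled knockout with LPS, 10.06 and 9.83 in the labelled knockout without it, 8.60 and 8.55 in wild type with LPS and 9.13 and 9.33 in wild type without it. Its difference between genotypes was 0.80 ± 0.12 with LPS and 0.71 ± 0.12 without it (limma adjusted p = 0.00101 and 0.0025). The labelled knockout arrays were above the wild-type arrays in each treatment, though by less than 2-fold. The sliding clamp gene Pcna was 0.83 ± 0.17 and 0.76 ± 0.17 higher with and without LPS (limma adjusted p = 0.00432 and 0.00799), and its values for LPS over unstimulated were -0.09 ± 0.17 in the labelled knockout and -0.16 ± 0.17 in wild type. The flap endonuclease gene Fen1 was called lower with LPS in the labelled knockout, at -1.07 ± 0.10, and had a change of -0.60 ± 0.10 in wild type. The clamp-loader gene Rfc4 fell by 1.04 ± 0.11 with LPS in wild type (limma adjusted p = 7.38e-05). Its call was lost under 4 of 17 alternatives, among them averaging its 2 kept probes. The polymerase gene Pole was not well above background on either wild-type LPS array and the labelled knockout exceeded it there by at least 1.62-fold. Rfc5, another clamp-loader gene, had 0.31 ± 0.12 with LPS and 0.14 ± 0.12 without it, labelled knockout over wild type.

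The 4 enzymes of nucleotide synthesis were all tested. Tyms, thymidylate synthase, had the largest genotype difference among the tested members. Its log2 signal was 10.64 and 10.79 in the labelled knockout with LPS and 11.04 and 10.85 in the labelled knockout without it. It was 8.58 and 8.29 in wild type with LPS and 8.98 and 9.07 in wild type without it. All 4 labelled knockout arrays were above all 4 wild-type arrays, by 2.29 ± 0.13 with LPS and 1.92 ± 0.13 without it (limma adjusted p = 4.43e-06 and 1.57e-05). For LPS over unstimulated Tyms had -0.23 ± 0.13 in the labelled knockout and -0.59 ± 0.13 in wild type. A second probe read 2.09 with LPS and 1.92 without it, and another, dim probe read 0.52 and 0.33.

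Rrm2, the regulated subunit of ribonucleotide reductase, had 7.30 and 7.51 in the labelled knockout with LPS, against 6.17 and 6.60 in wild type with LPS. Without LPS it had 8.01 and 7.90 in the labelled knockout, against 7.41 and 7.20 in wild type. Its change with LPS, 1.02 ± 0.16, was called (limma adjusted p = 0.00123) and its unstimulated change of 0.65 ± 0.16 was not 2-fold, while a second probe read 1.52 and 1.38. Leaving out 1 of its LPS arrays, replicate 1 of wild type or replicate 2 of the labelled knockout, took the first value below 2-fold. In all, 6 of 17 alternatives lost that call. Rrm1, the other subunit, changed by 0.14 ± 0.12 with LPS and 0.39 ± 0.12 without it, and its second probe read -0.40 and 0.37. That probe was called lower with LPS in the labelled knockout, at -1.36, where the brightest had -0.66 ± 0.12. Thymidine kinase, Tk1, fell with LPS in both genotypes, at -1.52 ± 0.12 in the labelled knockout and -1.55 ± 0.12 in wild type (limma adjusted p = 1.75e-05 and 1.59e-05). Its arrays read 7.92 and 7.93 with LPS against 9.46 and 9.44 without it in the labelled knockout, and 7.07 and 7.20 against 8.82 and 8.55 in wild type.

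Among mitotic cyclins, kinases and ubiquitin ligase genes, 4 of 8 were tested. The mitotic cyclin genes Ccna2 and Ccnb2 and the ubiquitin-conjugating enzyme gene Ube2c were detected on no array. None of the 4 tested was called between genotypes, with medians of 0.22 with LPS and 0.44 without it. For 4 genes this is near the background of 6.19% higher and 4.97% lower with LPS, and 4.54% and 3.96% without it. Plk1, the polo-like kinase of mitotic entry, had 8.13 and 8.03 in the labelled knockout with LPS, 9.21 and 9.41 in the labelled knockout without it, 7.58 and 7.54 in wild type with LPS and 8.40 and 8.49 in wild type without it. The groups did not overlap, and the unstimulated genotypes differed by 0.86 ± 0.12 (limma adjusted p = 0.000618). With LPS Plk1 was called lower in the labelled knockout, at -1.23 ± 0.12, and had a change of -0.89 ± 0.12 in wild type, under 2-fold.

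Cdc20, which activates the anaphase-promoting complex, differed little between unstimulated genotypes, with 9.03 and 9.08 in the labelled knockout against 9.08 and 9.23 in wild type. With LPS it had 7.91 and 7.76 in the labelled knockout against 8.10 and 8.32 in wild type, a change of -0.38 ± 0.12 opposite in sign to that of most members (limma adjusted p = 0.0363). LPS over unstimulated gave -1.22 ± 0.12 in the labelled knockout and -0.94 ± 0.12 in wild type, of which the first was called. Aurkb, the kinase of the chromosomal passenger complex, was called lower with LPS in the labelled knockout, at -1.25 ± 0.17, and had -0.99 ± 0.17 in wild type. Aurka, the centrosomal kinase, had -0.96 ± 0.17 in the labelled knockout and -0.79 ± 0.17 in wild type, neither reaching 2-fold.

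Of the spindle checkpoint genes, the kinase gene Bub1 was detected on no array, and Bub1b and Mad2l1 went different ways with LPS. Bub1b, which encodes a kinase-like inhibitor of Cdc20, had 8.16 and 8.12 in the labelled knockout with LPS, 9.49 and 9.36 in the labelled knockout without it, 7.85 and 7.86 in wild type with LPS and 9.03 and 9.09 in wild type without it. It fell in both genotypes, at -1.29 ± 0.10 in the labelled knockout and -1.20 ± 0.10 in wild type (limma adjusted p = 1.82e-05 and 2.87e-05). Mad2l1, another inhibitor of Cdc20, had 11.51 and 11.35 in the labelled knockout with LPS, 11.06 and 10.93 in the labelled knockout without it, 10.57 and 10.38 in wild type with LPS and 9.90 and 10.02 in wild type without it. All its LPS arrays were above the unstimulated arrays of the same genotype, by 0.43 ± 0.12 in the labelled knockout and 0.51 ± 0.12 in wild type (limma adjusted p = 0.0171 and 0.0083). The unstimulated genotypes differed by 1.03 ± 0.12. That call was lost under 5 of 17 alternatives, among them leaving out replicate 1 of either unstimulated group. On a second Mad2l1 probe the genotypes differed by 1.84 with LPS and 1.25 without it.

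Of the spindle, kinesin and midzone genes 5 of 7 were tested. Kif20a, a kinesin of cytokinesis, was detected on no array, as was Cenpe, the kinesin-like motor of the kinetochore. Tpx2, which activates Aurora A on the spindle, had 7.52 and 7.58 in the labelled knockout with LPS, 7.968 and 7.997 in the labelled knockout without it, 6.46 and 6.24 in wild type with LPS and 6.65 and 6.67 in wild type without it. The labelled knockout was 1.20 ± 0.11 higher with LPS and 1.32 ± 0.11 higher without it (limma adjusted p = 6.52e-05 and 4.58e-05). Its call with LPS was lost under median scaling, a larger offset, no background correction and the authors' normalized values, at changes down to 0.66, and its unstimulated call under the last of these and without background correction. LPS over unstimulated gave -0.43 ± 0.11 in the labelled knockout and -0.32 ± 0.11 in wild type. The midzone bundler Prc1 was 0.77 ± 0.11 and 0.91 ± 0.11 higher in the labelled knockout with and without LPS, and the microtubule binder Nusap1 was 0.53 ± 0.12 and 0.68 ± 0.12 higher, all under 2-fold. Kif11, the kinesin that pushes the spindle poles apart, had -0.41 ± 0.26 with LPS and -0.30 ± 0.26 without it, labelled knockout over wild type, with neither called.

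Kif23, the kinesin of the central spindle, went against the class. Its brightest probe had 7.19 and 6.86 in the labelled knockout with LPS, 8.88 and 8.89 in the labelled knockout without it, 8.54 and 8.66 in wild type with LPS and 10.38 and 10.50 in wild type without it. On that probe the labelled knockout was below wild type in each treatment, with changes of -1.57 ± 0.13 with LPS and -1.56 ± 0.13 without it (limma adjusted p = 3.46e-05 and 4.33e-05). Its 3 other kept probes read -0.25, -0.22 and 0.05 with LPS and -0.01, -0.30 and 0.02 without it, so the genotype difference rests on 1 probe of 4. The mean of the 4 probes changed by -0.50 and -0.46, under 2-fold. The fall with LPS was shared by a second probe, at -1.70 in the labelled knockout and -1.47 in wild type, beside -1.86 and -1.84 on the brightest. The remaining probes had -0.49 and 0.15 in the labelled knockout and -0.56 and 0.11 in wild type. On the mean of the 4 probes the LPS changes were -0.98 and -0.94, and both calls were lost.

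The chromosome and centromere genes Top2a, Birc5 and Cenpa were not called between genotypes. Top2a, the topoisomerase that untangles sister chromatids, was 0.53 ± 0.13 and 0.84 ± 0.13 higher in the labelled knockout with and without LPS (limma adjusted p = 0.0104 and 0.00126). Cenpa, the centromeric histone, had 10.62 and 10.80 in the labelled knockout with LPS against 11.88 and 11.91 without it, a fall of 1.19 ± 0.14 (limma adjusted p = 0.000151). In wild type it had 10.66 and 11.02 with LPS against 11.84 and 11.80 without it, a change of -0.98 ± 0.14 just under 2-fold. Birc5, a subunit of the passenger complex, had changes with LPS of -0.79 ± 0.15 in the labelled knockout and -0.84 ± 0.15 in wild type.

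Of the 7 regulators of S-phase entry, only the checkpoint kinase gene Chek1 was detected on no array. Uhrf1, which guides Dnmt1 to newly copied DNA, had 9.90 and 9.68 in the labelled knockout with LPS, 11.15 and 11.28 in the labelled knockout without it, 8.81 and 8.81 in wild type with LPS and 9.65 and 9.69 in wild type without it. It was 1.54 ± 0.12 higher in the unstimulated labelled knockout (limma adjusted p = 2.26e-05), and with LPS its difference of 0.98 ± 0.12 fell just short of 2-fold. E2f1 and E2f2, both activators of S-phase genes, moved in opposite directions between genotypes. E2f1 had 10.50 and 10.12 in the unstimulated labelled knockout against 9.17 and 9.38 in unstimulated wild type, a change of 1.03 ± 0.16. Its call was lost under 7 of 17 alternatives, among them leaving out replicate 1 of either group.

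E2f2 had 6.19 and 6.29 in the labelled knockout with LPS, 8.90 and 8.61 in the labelled knockout without it, 7.31 and 7.20 in wild type with LPS and 10.03 and 9.88 in wild type without it. The labelled knockout was below wild type in each treatment, with changes of -1.02 ± 0.13 with LPS and -1.20 ± 0.13 without it (limma adjusted p = 0.0004 and 0.000199). Its second probe read -1.503 and -1.546. The call with LPS was lost under 6 of 17 alternatives, among them leaving out replicate 1 of either LPS group. LPS over unstimulated gave -2.52 ± 0.13 in the labelled knockout and -2.70 ± 0.13 in wild type, the largest fall among the members in each genotype. Ccne2, the cyclin E gene that drives Cdk2, was well above background on both arrays of the unstimulated labelled knockout alone, at 7.26 and 6.81 against 6.03 and 5.56 in unstimulated wild type. Its change of 1.24 ± 0.25 was called (limma adjusted p = 0.00556), and with LPS in the labelled knockout it was at least 1.99-fold lower. Ccne1 was detected only in the unstimulated labelled knockout, where it was at least 1.16-fold higher than in wild type. On its brightest probe Cdk2, the kinase that cyclin E activates, had 0.36 ± 0.11 with LPS and 0.52 ± 0.11 without it, labelled knockout over wild type, both under 2-fold. Its 3 other kept probes read 0.15, -0.50 and -0.77 with LPS and 0.65, 0.24 and 0.37 without it, so the sign with LPS differed between probes.

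The replication and mitotic classes were then set side by side. Without stimulation, 16 of 20 replication genes (80%) were higher in the labelled knockout at an adjusted p under 0.05 and 0 were lower, and 8 of 14 mitotic genes (57.1%) were higher and 1 was lower, beside 18.2% and 18.0% of all genes. With LPS the counts were 12 of 20 (60%) higher and 0 lower for replication, and 6 of 14 (42.9%) higher and 2 lower for mitosis, beside 21.3% and 22.6% of all genes. Both arrays of the unstimulated labelled knockout were above both of wild type for 17 of 20 replication genes and 10 of 14 mitotic genes, beside 35.0% of all genes. With LPS, 16 of 20 replication genes (80%) and 13 of 14 mitotic genes (92.9%) were lower in the labelled knockout at an adjusted p under 0.05. In wild type 16 of 20 (80%) and 11 of 14 (78.6%) were, beside 30.0% of all genes in each genotype. The difference between the classes itself was not tested. The 6 mitotic and 3 replication genes that had probes but were not tested do not enter these counts.

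Whether the LPS effect differed between genotypes was tested as well, and the difference was called for 0 of 40 members, where 1.96% of all genes were called higher and 1.87% lower. At an unadjusted p under 0.05 there were 10 of 40, beside 24.3% of all genes, which is near the members' share. By class these were 8 of 20 replication genes, 0 of 14 mitotic genes and 2 of 6 regulators, and the difference between classes was not tested. At an adjusted p under 0.05 with no fold minimum there were 2, Mcm4 and Cdc6, beside 4.23% of all genes lower and 3.89% higher. Mcm4 had -0.63 ± 0.16 (limma adjusted p = 0.0498), where a negative value means a larger fall with LPS in the labelled knockout. For Cdc6 the size of the difference was not measured, because neither wild-type LPS array was well above background. Among further probes 1 was called, a Cdk2 probe at -1.137 (limma adjusted p = 0.0473 over all kept probes). The median was -0.19 for replication genes and -0.14 for mitotic genes, beside -0.01 for all genes, and under median scaling these were -0.41, -0.36 and -0.21, with 97 higher and 316 lower calls over all genes in place of 163 and 155. Without replicate 1 of the labelled knockout LPS group the replication median was -0.0039. Within the replication class, on all 8 arrays, the median was -0.52 for licensing and helicase genes, 0.11 for fork genes and 0.20 for nucleotide synthesis.

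Further probes qualified several of these values. In all 17 tested members had more than 1 kept probe, with 28 further probes. For Mcm6, a helicase subunit, the brightest probe read 8.77 and 9.11 in the labelled knockout with LPS, 9.83 and 9.74 in the labelled knockout without it, 8.97 and 9.08 in wild type with LPS and 9.76 and 9.74 in wild type without it, so the genotypes differed by -0.09 ± 0.13 and 0.04 ± 0.13. A second probe gave -0.67 with LPS and -0.10 without it. The remaining probe read 4.64 to 4.79 on the 4 labelled knockout arrays, none of them above background, against 8.69 and 8.70 in wild type with LPS and 9.48 and 9.40 in wild type without it. One Mcm6 probe was thus at background in both labelled knockout groups while the others were not, and what the probe's target holds in these cells was not tested.

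**Figure D5:**
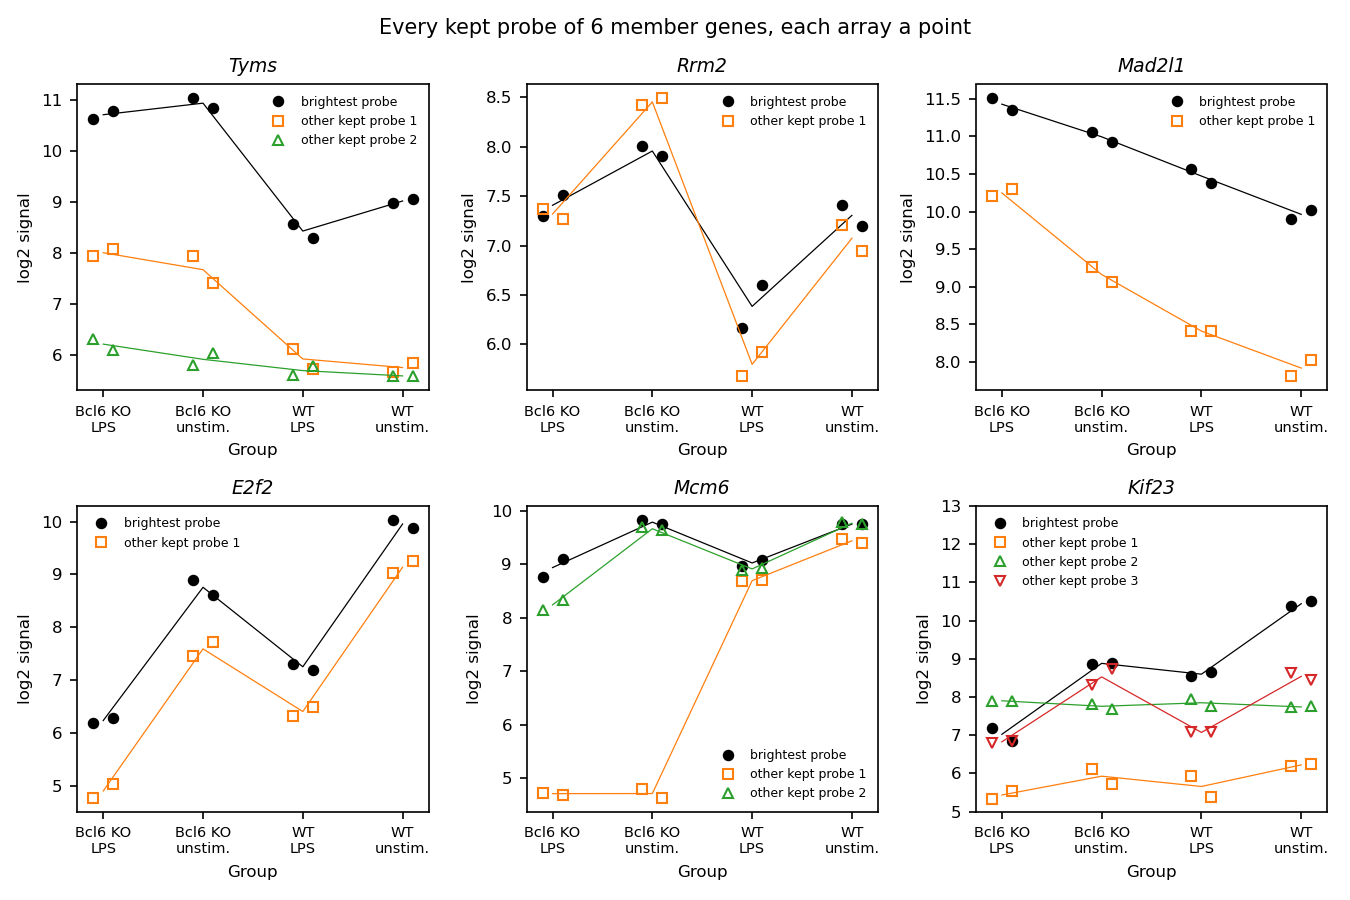
Log2 signal of every kept probe of Tyms, Rrm2, Mad2l1, E2f2, Mcm6 and Kif23 by group, each array a point and lines joining group means. For Rrm2 and for E2f2 both probes give the same order of groups, 1 probe of Mcm6 lies near 4.7 in both labelled knockout groups, and the genotype difference of Kif23 appears on its brightest probe alone.

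Genes of the pathway outside the 53 were read from the same fit. Of 32 tested further replication genes, 2 were called higher in the labelled knockout with LPS and 7 without it, with 0 lower in each. That is 6.25% with LPS, near the 6.19% of all genes, and 21.9% without it, beside 4.54%. Chaf1b, a histone chaperone of the fork, was 1.16 ± 0.12 and 1.24 ± 0.12 higher with and without LPS, and Cdc45, the helicase cofactor, was 1.15 ± 0.13 higher without it. LPS lowered 12 of the 32 in the labelled knockout and 6 in wild type, beside 7.36% and 6.50% of all genes. Dnmt1, the maintenance DNA methyltransferase, had the largest fall of these, at -2.19 ± 0.12 in the labelled knockout and -2.08 ± 0.12 in wild type. Of 37 further mitotic genes, the labelled knockout had 3 higher and 0 lower calls with LPS, and 5 higher and 1 lower without it. The higher calls are 8.11% with LPS, near the background of 6.19%, and 13.5% without it, beside 4.54%. Anln, a scaffold of the cytokinetic ring, was 1.27 ± 0.11 higher without LPS, and Stmn1, a microtubule destabiliser, was 1.75 ± 0.20 higher with it. LPS lowered 10 of the 37 in the labelled knockout and 8 in wild type, beside the same 7.36% and 6.50%.

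Genes that gate the cycle were tested beside them. Of 12 tested E2F, pocket protein and MuvB genes, 0 were called higher in the labelled knockout in either treatment. Of all genes, 6.19% were with LPS and 4.54% without it. With LPS 1 of the 12 was called lower (8.33%, beside 4.97% of all genes), E2f6, a repressor of the family, at -1.04. Of 12 tested D-type cyclin and Cdk inhibitor genes, the labelled knockout had 1 higher and 2 lower calls with LPS, and 2 higher and 2 lower without it. With LPS these are 8.33% and 16.7%, beside 6.19% and 4.97% of all genes. Without it they are 16.7% each, beside 4.54% and 3.96%. Ccnd2, cyclin D2, was 1.31 ± 0.11 higher with LPS and 1.48 ± 0.11 higher without it. Cdkn1c, the inhibitor p57, was called lower in each treatment, at -1.93 ± 0.11 with LPS and -1.56 ± 0.11 without it. Ccnd1, cyclin D1, had 11.33 and 11.52 in the unstimulated labelled knockout against 10.10 and 9.99 in unstimulated wild type, a change of 1.38 ± 0.13. It fell with LPS in both genotypes, at -4.42 ± 0.13 in the labelled knockout and -3.46 ± 0.13 in wild type. Cdkn2b, an inhibitor of the D-type cyclin kinases, changed by -3.46 ± 0.12 with LPS and by -2.12 ± 0.12 without it, labelled knockout over wild type. It had 7.78 and 7.76 in the labelled knockout against 11.21 and 11.24 in wild type with LPS, and 5.82 and 6.05 in the labelled knockout against 7.97 and 8.14 in wild type without it. Cdkn1a, which encodes the inhibitor p21, rose with LPS by 2.37 ± 0.13 in the labelled knockout and by 2.83 ± 0.13 in wild type.

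Markers of other cells moved with the genotype. All 12 tested genes of the granulocyte precursor list were called lower in the unstimulated labelled knockout, beside 3.96% of all genes. With LPS 4 of the 12 were, beside 4.97% of all genes. The summed signal of the 12 markers was 13452.8 to 14345.9 in the labelled knockout with LPS and 9428.58 to 10321.9 in the labelled knockout without it. In wild type it was 23508.1 to 23762.7 with LPS and 25585.7 to 28493.6 without it. None of the 4 labelled knockout arrays detected Kit, a receptor of progenitor cells, or the granule proteases Elane and Prtn3. Between genotypes these markers were lower where the replication genes were higher, and their part in the result was not tested. With LPS in wild type both fell, with medians of -0.63 for the 12 granulocyte markers and -0.75 for replication genes. In the labelled knockout these medians were 0.33 and -0.88. No tested gene came from the lists for B cells, T and NK cells, stromal cells or dendritic cells, and of the erythroid list only Tfrc and Car2, which other cells also express, were tested. Both of these were on the same side as the replication genes. Tfrc, the transferrin receptor, had 0.68 ± 0.11 with LPS and 0.96 ± 0.11 without it, labelled knockout over wild type, and Car2 was detected in the labelled knockout with LPS alone, where it was called higher, by at least 1.32-fold. Of 13 tested macrophage markers 3 were called lower in the labelled knockout with LPS, and 4 lower and 1 higher without it. Of all genes, 4.97% were called lower with LPS, and 3.96% lower and 4.54% higher without it.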

How the data were processed

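Expression was measured on 8 single-colour bead arrays. The authors deposited, for each probe and array, a bead intensity that was not normalized and a detection p-value against the negative controls of that array. A table of the authors' normalized intensity values was used as an alternative only. The submitters' processing notes name GenomeStudio with no version, and how that table was normalized was not given in the sources used here.

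Intensities were background-corrected with nec in limma 3.58.1 (R 4.3.3), with an offset of 16, and then quantile-normalized as log2 values. Of 45281 probes, the 14418 that 2 or more arrays detected at p under 0.01 were kept. Gene symbols came from the platform annotation, updated to RefSeq names for 34818 probes. Each of the 8306 genes took its brightest kept probe. A model with 1 mean per group was fitted to all 8 arrays (4 residual and 4.57 prior degrees of freedom), and p-values were adjusted by Benjamini-Hochberg over all genes within each contrast. The probes beyond the brightest were read from the same model over all kept probes. Where neither array of a group was well above background, the fold is the brighter group's mean against, per dim array, whichever is higher of that array's lowest detected signal and the signal of the probe itself. The fit was tested on simulated data. Alternatives changed the background correction, scaling, filter, probe summary, fold minimum, array set and replicate block. The labels' replicate numbers do not pair arrays across groups: deviations of same-numbered arrays correlated at -0.031 to 0.0084.

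All 53 members could be named, and from other lists up to 3 called genes per direction, list and contrast with the largest change. The members and lists were chosen with earlier results of these data known.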

Additional observations from a re-analysis of the deposited data

Results flagged for a closer look

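No member showed an LPS effect that differed between the genotypes by the calling rule on its brightest probe, and groups of 2 arrays are too small for a check for outlying arrays. Among the related lists, 9 genes did, by limma's test of the difference itself, given here as labelled knockout minus wild type. Lower were 1 of 32 further replication genes and 1 of 12 E2F, pocket protein and MuvB genes. Also lower were 2 of 12 D-type cyclin and Cdk inhibitor genes. Higher were 4 of 12 granulocyte precursor markers and 1 of 2 erythroid markers. None of 37 further mitotic genes or 13 macrophage markers was called. Of all genes, 1.87% were called lower and 1.96% higher. The pocket protein gene Rbl1 differed by -1.092 (adjusted p = 0.00939), with LPS effects of -0.07 in the labelled knockout and 1.02 in wild type. The kinase gene Cdk6, a partner of D-type cyclins, differed by -1.335 (adjusted p = 0.0437), with effects of -0.49 in the labelled knockout and 0.85 in wild type. The inhibitor gene Cdkn2b differed by -1.341 (adjusted p = 0.00311), with effects of 1.83 in the labelled knockout and 3.17 in wild type. Of the granule genes, Mpo differed by 1.805 (adjusted p = 0.00762), with 1 of 2 arrays detected in each labelled knockout group. Lcn2, an iron-scavenging granule protein, differed by 1.511 (adjusted p = 0.0018) and the calcium-binding granulocyte gene S100a9 by 1.189 (adjusted p = 0.00443). For the other 3 of the 9 genes the fit gave a value, but at least 1 genotype had no LPS effect that could be measured, so the difference has no measured size. Timeless, a fork-protection factor, had -1.855 and was detected only in the unstimulated labelled knockout and in wild type with LPS, and it was at least 1.69-fold lower with LPS in the labelled knockout and at least 1.17-fold higher with LPS in wild type. Prtn3 had 1.591 and was not detected on any labelled knockout array. The carbonic anhydrase gene Car2 had 1.326 and was detected only in the labelled knockout with LPS, at least 1.38-fold higher than without it.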

How the results depend on the processing

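Counts of called genes are given as replication, mitotic and all genes for the genotype difference unstimulated, 5, 3 and 706, and with LPS, 2, 2 and 927, then for LPS in wild type, 5, 2 and 1165, and in the labelled knockout, 8, 6 and 1233. The difference of the LPS effect had 0, 0 and 318. Fold changes of dim probes shrink without background correction, which gave 1, 1 and 327, then 1, 1 and 412, then 2, 1 and 635, then 5, 3 and 641, and 122 of all genes for the difference. The authors' normalized table gave 2, 1 and 340, then 1, 1 and 419, then 2, 1 and 637, then 4, 3 and 651. It gave 120 of all genes for the difference. Without a fold minimum the counts were 16, 9 and 3010, then 12, 8 and 3647, then 16, 12 and 4094, then 16, 14 and 4132, and 2 replication and 674 of all genes for the difference. Median scaling gave 3 replication genes unstimulated, 1 replication and 1 mitotic gene with LPS between genotypes, and 1 replication gene for the difference. An offset of 50 gave 1 replication and 1 mitotic gene with LPS between genotypes, 3 replication genes for LPS in wild type and 197 of all genes for the difference. Averaging a gene's kept probes left 1 mitotic gene for LPS in wild type, and turned the unstimulated genotype change of Mcm6 to -1.60 (limma adjusted p = 1.62e-05), since 1 of its 3 probes was at background in the labelled knockout. Cyclic loess and both other detection filters moved no count past 1.5 times. Leaving out each array in turn, in fits where a lone array is taken to vary like the other groups, gave replication counts of 5 to 7, 1 to 4, 4 to 7, 7 to 9 and 0 to 1, mitotic counts of 2 to 3, 2 to 3, 2 to 4, 6 to 8 and 0 to 0, and counts of all genes of 704 to 739, 926 to 994, 1165 to 1208, 1233 to 1311 and 255 to 341. With the replicate number as a block every count was as in the fit without it, except 316 in place of 318, and since the numbers pair no arrays this says nothing of pairing. Of 42 calls of members, 15 held under every alternative tried and 27 were lost under at least 1, 23 of them without background correction or with the authors' table. The median change of replication and mitotic genes kept its sign in all 5 contrasts under these alternatives. Signal over background limits the dim members Mcm7, Cdc6, Pole, Ccne1 and Ccne2, and 2 technical arrays a group limit every test.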
